A study of Mus musculus with 4 samples.

Results

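The cells described are the cycling cells of mouse LSK bone marrow, the gate (Lin-Sca-1+Kit+) of blood stem cells and their first progeny. Cells were chosen by their own UMI counts: a cell was counted as cycling when it held 2 or more unique molecular identifiers (UMIs, each a captured RNA molecule) of Mki67 and 2 or more of Top2a. It also had to stay under limits on 6 lineage genes: Elane under 5, Car1 under 3 and Ly6d under 3 UMIs, and Cd79a, Gp5 and Gp9 at 0. The rule chose 6402 of the 37344 cells that passed the filter of 500 to 7500 genes and under 10% mitochondrial UMIs. Because the rule read the UMIs of these 8 genes, the levels of those genes among the chosen cells are no finding.

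Mki67 encodes Ki-67, which coats mitotic chromosomes and is made from S phase until the end of mitosis. Top2a encodes the topoisomerase that untangles replicated DNA before the sister chromatids part. Cells that copy DNA carry transcripts of replication factors and histones. Cells in G2 and mitosis carry those of cyclin B, its kinase Cdk1, and the kinetochore and spindle proteins. In normal marrow the most primitive stem cells rarely divide, and their progeny in the same gate divide often.

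There were 4 libraries, 1 for each genotype, and each came from sorted cells pooled from 5 mice aged 8 to 12 weeks after bead enrichment of Kit+ cells. Every mouse carried Vav1-iCre, a recombinase driven in blood-forming cells, and the control group carried no other mutant allele. Ikk2CA mice had 1 floxed Ikk2-CA allele, which encodes an always active version of an NF-κB-activating kinase, and Jak2V617F mice had 1 floxed allele of the activated kinase of myeloproliferative disease. The double mutant had both alleles. According to the design text the lines were also crossed to an NF-κB-responsive EGFP reporter, which the genotype labels do not list. With 1 pooled library per genotype there is no measure of the spread between animals, so no test across genotypes was made. Intervals are 95% and cover counting error only.

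The promoters of the genes that chose the cells, and of the gene that set them most apart from other cells, are shown because mitotic genes share a promoter layout. Each sequence is the RefSeq window from 250 bases before to 50 after the start on GRCm38.p6, written 5′ to 3′ on the gene's strand. Capitals mark TTTGAA, the cell cycle gene homology region, and CCAAT, on either strand, so that TTCAAA and ATTGG are their complements. Mki67 lies at chr7:135716330-135716629 on the minus strand, Top2a at chr11:99024140-99024439 on the minus strand and Kif2c at chr4:117178723-117179022 on the minus strand.
Mki67: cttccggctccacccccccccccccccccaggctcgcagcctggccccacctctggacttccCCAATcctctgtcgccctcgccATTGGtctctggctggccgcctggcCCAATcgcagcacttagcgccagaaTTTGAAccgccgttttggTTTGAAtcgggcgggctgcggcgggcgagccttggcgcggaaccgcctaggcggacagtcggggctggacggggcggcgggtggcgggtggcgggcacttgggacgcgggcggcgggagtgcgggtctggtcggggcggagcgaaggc
Top2a: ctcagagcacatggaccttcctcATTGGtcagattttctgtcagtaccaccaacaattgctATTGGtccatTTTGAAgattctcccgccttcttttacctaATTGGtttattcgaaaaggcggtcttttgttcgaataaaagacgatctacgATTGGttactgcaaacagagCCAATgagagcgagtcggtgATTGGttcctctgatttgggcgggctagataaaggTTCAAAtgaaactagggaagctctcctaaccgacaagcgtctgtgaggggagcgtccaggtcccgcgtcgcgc
Kif2c: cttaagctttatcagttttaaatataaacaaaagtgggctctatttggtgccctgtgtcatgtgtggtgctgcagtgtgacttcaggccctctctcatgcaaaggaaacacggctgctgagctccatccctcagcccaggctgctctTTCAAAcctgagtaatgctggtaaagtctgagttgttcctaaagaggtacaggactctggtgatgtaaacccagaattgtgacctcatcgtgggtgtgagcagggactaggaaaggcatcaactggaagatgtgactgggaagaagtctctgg

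The Mki67 window held 2 copies of TTTGAA and 3 of CCAAT, the Top2a window 2 and 6, and the Kif2c window 1 and 0. Over all 32851 mouse promoter windows, TTTGAA was in 17.9% and CCAAT in 37.4%. Among 17 windows of mitotic cyclins and kinases TTTGAA was in 9 (52.9%) and CCAAT in 15 (88.2%), and among 32 windows of spindle motors and microtubule proteins each was in 23 (71.9%). Among 51 windows of S phase genes TTTGAA was in 7 (13.7%) and CCAAT in 31 (60.8%). Windows were found for 17 of 24, 29 of 33 and 43 of 58 genes of these lists. These are matches of letters and were not tested for binding.

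The chosen cells numbered 1101 of 8055 in control, 1308 of 9865 in Ikk2CA, 2824 of 14156 in Jak2V617F and 1169 of 5268 in the double mutant. Libraries were unequal in depth, at medians of 19239, 26978, 18284 and 35508 UMIs per cycling cell in that order, against 9877, 16236, 9398.5 and 21723 UMIs per other kept cell. Their summed UMIs were 21676932, 36305455, 54182630 and 42191479. Of the cycling cells 44.0%, 75.2%, 99.6% and 72.7% had no UMI of Xist, which the inactive X chromosome expresses, so the pools were not alike in that respect. Only 2 barcodes of cycling cells were shared between libraries. High doublet scores were held by 10.7%, 9.79%, 18.1% and 6.93% of cycling cells, against 9.69%, 8.48%, 12.7% and 4.54% of the others. How many cells count as high was set by each library's barcode number, so these percentages do not compare libraries.

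The chosen cells carried the transcripts of dividing cells in all 4 libraries. All 24 mitotic cyclins and kinases were higher in cycling than in other kept cells of each library, with a median log2 ratio of 1.82 in control, 0.87 in Ikk2CA, 1.55 in Jak2V617F and 1.28 in the double mutant. Ccnb1, the cyclin that takes cells into mitosis, was at 139, 94.1, 95.4 and 93.5 CPM in control, Ikk2CA, Jak2V617F and the double mutant (the order of all 4-value sentences below), against 40.4, 56.3, 33.1 and 40.3 CPM in the other cells. CPM stands for UMI counts scaled to the summed total of the cells. Across all genes of at least 10 CPM, 237 of 8456 (2.8%) were at least 2-fold higher in the cycling cells of control, 29 of 7708 (0.376%) in Ikk2CA, 183 of 8387 (2.18%) in Jak2V617F and 138 of 7628 (1.81%) in the double mutant. At or below 0.5-fold were 94 (1.11%), 127 (1.65%), 51 (0.608%) and 57 (0.747%).

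The other cells of each library also held cells past both UMI thresholds that the lineage limits had removed. They made up 9.09%, 25.5%, 9.42% and 15.5% of kept cells. The ratios thus compare cycling cells with a partly cycling remainder, most of all in Ikk2CA and next in the double mutant. The gene with the highest lowest ratio over the 4 libraries was Kif2c, a microtubule-depolymerising motor of the centromere, at 48.0, 35.1, 40.05 and 33.9 CPM in cycling and 11.01, 15.3, 11.1 and 11.02 CPM in other cells. Iqgap3, Troap and Cep55 were among the next, of which Cep55 acts when daughter cells part. Because the rule chose cells by 2 transcripts of dividing cells, these ratios describe the choice and nothing is read from their counts. Apart from genes of the rule itself, the lowest in cycling cells were Vpreb2, Jchain, Ebf1 and Vpreb3, genes of the B lineage, which the limits on Cd79a and Ly6d select against. Ebf1, a B cell transcription factor, was at 2.17, 2.67, 0.535 and 0.261 CPM against 65.6, 334, 19.2 and 25.8 CPM in other cells.

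The thresholds lay on a gradient. Among cells within the lineage limits, the summed level of 108 mitotic genes in control was 3788 CPM where both marker genes were at 0, 9117 CPM in the 333 cells whose lower gene had 1 UMI, just outside the rule, 11821 CPM in the 138 cells with 2 UMIs, just inside, and 21031 CPM in the 589 cells with 8 or more. In the double mutant the same steps were 3690 CPM, 7037 CPM, 9168 CPM and 16855 CPM. The 58 S phase genes took another course, at 8566 CPM with 3 UMIs and 5470 CPM with 8 or more in control. At every step, also where 1 or both genes were at 0, the mitotic sum was higher in control than in each mutant. A step does not hold cells of equal depth. At 1 UMI the median cell had 12172 UMIs in control, 19629.5 in Ikk2CA, 13797 in Jak2V617F and 25693 in the double mutant.

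**Figure D1:**
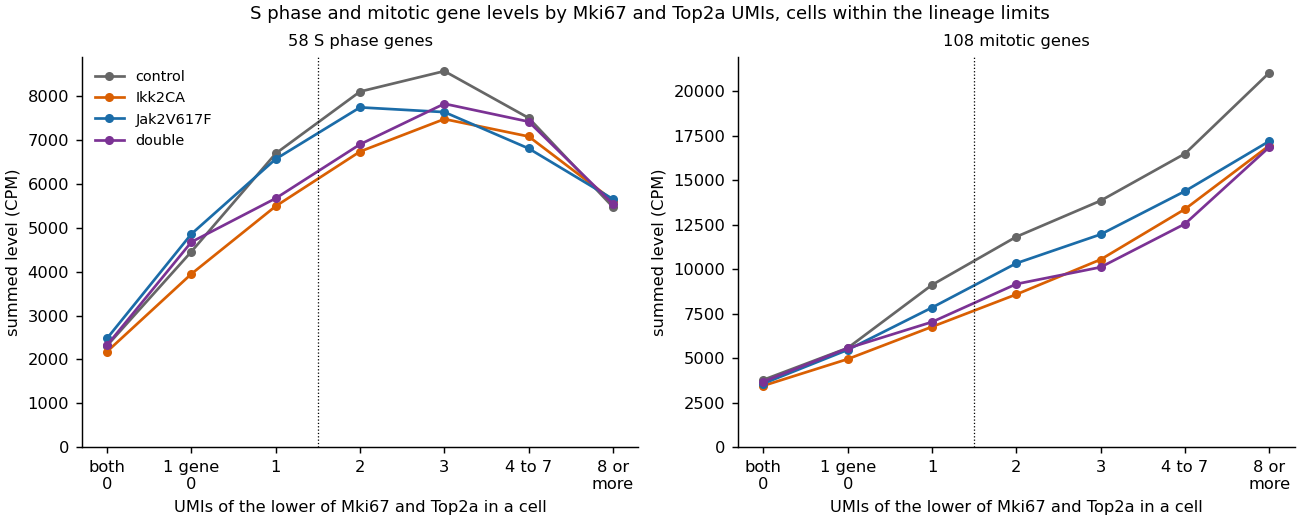
Summed level (CPM) of 58 S phase genes (left) and 108 mitotic genes (right) in cells within the lineage limits, by the UMIs of the lower of Mki67 and Top2a; lines are the 4 libraries and the dotted line is the threshold of 2 UMIs. The mitotic sum rises with the marker UMIs to 21031 CPM in control, whereas the S phase sum is highest at 2 or 3 UMIs.

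As a share of all kept cells, cycling cells made up 13.7% (interval 12.9 to 14.4) of control, 13.3% (12.6 to 13.9) of Ikk2CA, 19.9% (19.3 to 20.6) of Jak2V617F and 22.2% (21.1 to 23.3) of the double mutant. Because a cell passes a UMI threshold more easily when it is sequenced more deeply, cells were also thinned to equal depth. At 5000 UMIs per cell the shares were 10.4% (9.68 to 11.1), 8.13% (7.59 to 8.70), 13.0% (12.4 to 13.6) and 10.5% (9.70 to 11.4), with 10.4%, 4.11%, 9.61% and 2.77% of cells left out as too shallow. At 10000 UMIs they were 22.2%, 13.5%, 31.1% and 19.1%, with 44.9%, 14.5%, 44.2% and 6.13% left out. Jak2V617F was above control at full depth and at both equal depths. The double mutant was above control at full depth, overlapped it at 5000 UMIs and was below it at 10000 UMIs.

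The summed levels of the marker genes need no threshold on those genes. Over all kept cells Mki67 was at 192, 217, 211 and 168 CPM and Top2a at 350.3, 359.9, 399 and 316 CPM in control, Ikk2CA, Jak2V617F and double. Mki67 was there highest in Ikk2CA and Top2a in Jak2V617F. Over the kept cells within the lineage limits, which are themselves UMI thresholds and move with depth, Mki67 was at 169, 158, 193 and 152 CPM. Top2a was at 327, 289, 381 and 305 CPM. Both genes were highest in Jak2V617F within the limits, and in the double mutant both were below control in either set of cells. On this CPM scale the median gene was itself below control, at a log2 ratio of −0.22 in other kept cells of Ikk2CA and of the double mutant. The full-depth shares, which put the double mutant highest, are not ordered as these CPM levels, and no order is read from those shares.

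The lineage limits removed different cells in different libraries. Of the cells past both UMI thresholds they took out 732 (39.9%) in control, 2518 (65.8%) in Ikk2CA, 1333 (32.1%) in Jak2V617F and 816 (41.1%) in the double mutant. In Ikk2CA the largest removals were by Cd79a, a B cell receptor subunit, in 1192 cells (31.2%) and by Ly6d, a marker of early lymphoid cells, in 1122 (29.3%). In the other libraries Gp9, a platelet receptor subunit, removed most, at 279 (15.2%), 680 (16.4%) and 456 (23.0%) cells. Without any lineage limit the shares were 22.8%, 38.8%, 29.4% and 37.7% at full depth and 13.4%, 17.8%, 15.5% and 12.4% at 5000 UMIs. At 10000 UMIs they were 31.4%, 31.3%, 40.4% and 24.8%. The order without limits thus turned on the depth: Ikk2CA was highest at full depth and at 5000 UMIs, and Jak2V617F at 10000 UMIs, where Ikk2CA and control overlapped.

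Against only the cells within the lineage limits, the shares were 18.6%, 27.9%, 25.8% and 33.0% at full depth, and 12.7% (11.8 to 13.5), 12.9% (12.1 to 13.8), 15.1% (14.5 to 15.8) and 12.2% (11.2 to 13.2) at 5000 UMIs. With depth and lineage limits alike, Jak2V617F stood above the other libraries and those 3 had overlapping intervals. At 10000 UMIs, where more shallow cells are left out, the shares were 30.4%, 24.5%, 40.2% and 24.3%, with Jak2V617F again highest and both Ikk2-CA libraries below control. A background for the thresholds, added after seeing the data, came from the 95 Ikk2CA cells with 2 or more UMIs of the mature B cell gene Ms4a1, at a median of 30313 UMIs. At full depth 8 of 95 of them (8.42%, interval 3.71 to 15.9) passed both thresholds with the lineage limits ignored, against 38.8% of all kept Ikk2CA cells. At 5000 UMIs, 2 of 94 (2.13%, interval 0.259 to 7.48) passed, against 17.8%. Cells with 3 or more Hlf and 1 or more Mecom UMIs, the reference planned at first, did not have a lower share, at 13.7%, 11.6%, 18.9% and 14.3% at 5000 UMIs.

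**Figure D2:**
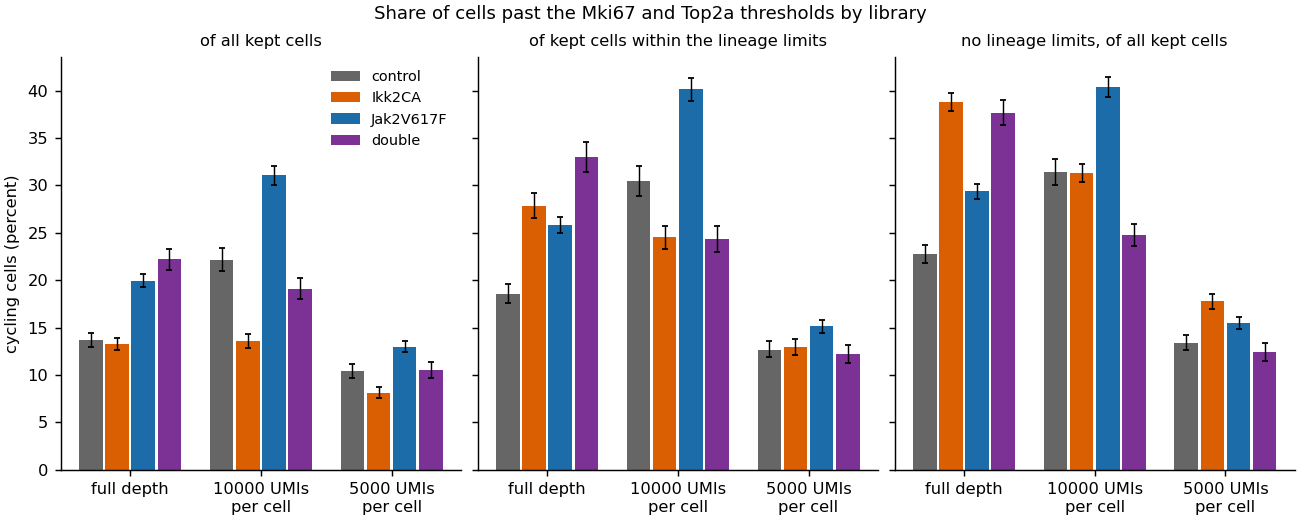
Cycling cells as a percent of all kept cells (left), of kept cells within the lineage limits (middle) and with no lineage limit (right), at full depth and after thinning each cell to 10000 or 5000 UMIs; bars are the 4 libraries and whiskers 95% exact binomial intervals. The double mutant leads at full depth in the left and middle panels (22.2% and 33.0%) and does not at equal depth.

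Within the cycling cells at equal depth, S phase UMIs were alike between libraries and mitotic UMIs were lower in all 3 mutants. At 10000 UMIs per cell, in 983, 1141, 2451 and 944 cycling cells, the median cell held 61, 61, 63 and 63.5 UMIs of the S phase genes. The median for the mitotic genes was 194 UMIs in control against 161 in Ikk2CA, 158 in Jak2V617F and 160 in the double mutant. The upper quartile of control was 239 mitotic UMIs, above the 196, 192 and 190.25 of the mutants. These UMIs are parts of a fixed total and are not set relative to the median gene. In the summed cycling cells that gene was at a log2 ratio to control of −0.26 in Ikk2CA, −0.03 in Jak2V617F and −0.26 in the double mutant.

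Single mitotic genes differed in how far they followed. Cdc20, which activates the anaphase-promoting complex, had a UMI in 68.7% (65.7 to 71.6), 61.0% (58.1 to 63.8), 59.0% (57.0 to 61.0) and 58.6% (55.4 to 61.7) of these thinned cells. Aurka, the centrosome kinase, had one in 49.6% (46.5 to 52.8), 42.0% (39.1 to 44.9), 37.0% (35.05 to 38.9) and 37.9% (34.8 to 41.1). For both genes the 3 mutant intervals lay below that of control. Ccnb1 had a UMI in 54.1%, 53.5%, 50.6% and 50.3% of cells, with overlapping intervals.

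**Figure D3:**
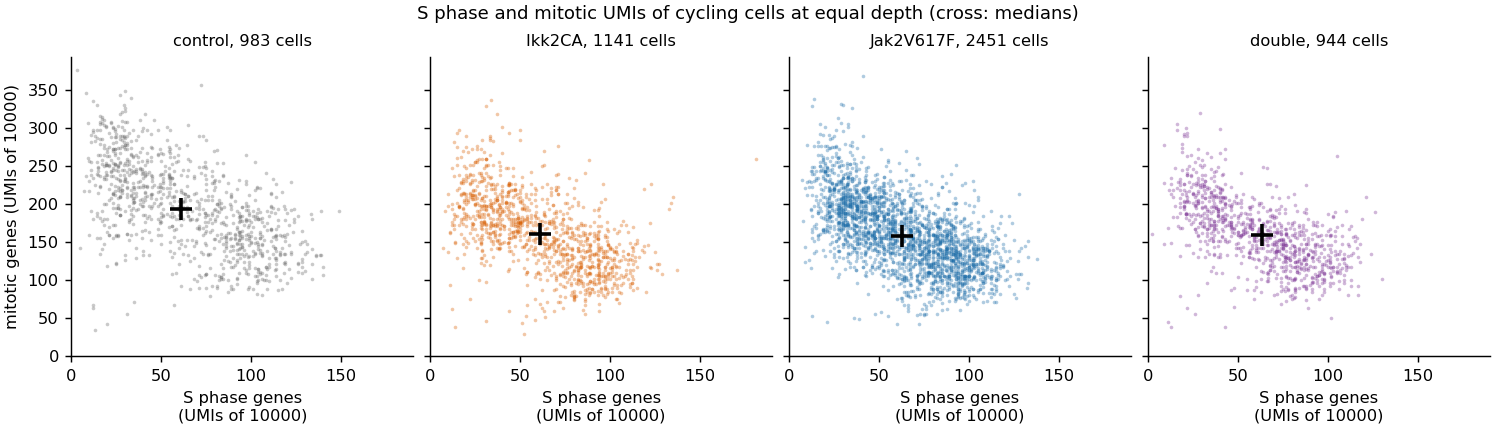
Each point is a cycling cell thinned to 10000 UMIs, with its UMIs of 58 S phase genes (horizontal) and 108 mitotic genes (vertical), by library; the black cross marks the medians. The cloud falls from cells rich in mitotic transcripts to cells rich in S phase transcripts, and the cross sits at 194 mitotic UMIs in control and between 158 and 161 in the mutants.

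Expression in the summed cycling cells was then compared between genotypes, with genes of at least 10 CPM in either library. Against control, 165 of 8249 genes (2%) were at least 2-fold higher in Ikk2CA and 294 (3.56%) were at or below 0.5-fold. In Jak2V617F 27 of 8274 (0.326%) were higher and 23 (0.278%) lower, and in the double mutant 73 of 8200 (0.89%) were higher and 226 (2.76%) lower. The median gene stood at a log2 ratio of −0.26 in Ikk2CA, −0.03 in Jak2V617F and −0.26 in the double mutant, so list medians below are given relative to the median gene. The balance of higher and lower calls follows that shift: with TMM factors 253 genes were higher and 109 lower in Ikk2CA, and 177 higher and 61 lower in the double mutant. Log2 ratios of single genes are on the CPM scale. The 3 comparisons share the control library.

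**Figure D4:**
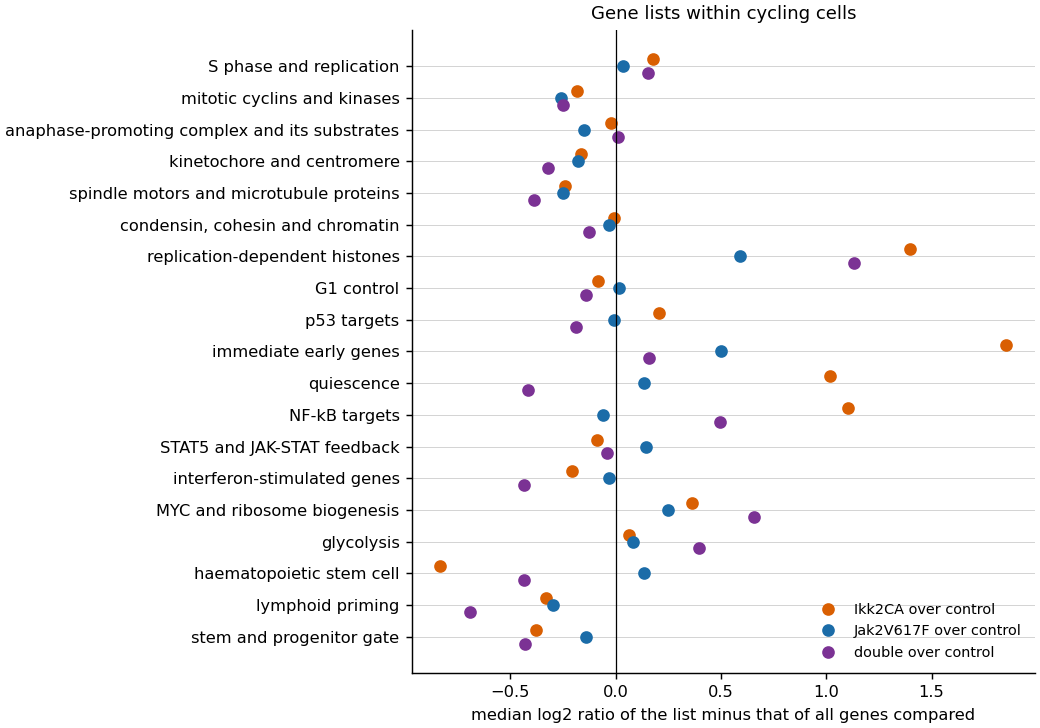
Median log2 ratio of each of 19 gene lists minus that of all genes compared, for Ikk2CA, Jak2V617F and the double mutant over control in the summed cycling cells. Among the lists plotted, immediate early genes (1.85) and histones (1.40) stand highest in Ikk2CA, and stem cell genes lowest (−0.83).

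Mitotic genes as a group were below the median gene in all 3 mutants. The 24 mitotic cyclins and kinases had a relative median of −0.18, −0.26 and −0.25 in Ikk2CA, Jak2V617F and the double mutant, and 7, 2 and 4 of them were above the median gene. The 31 kinetochore and centromere genes had medians of −0.16, −0.18 and −0.32, with 6, 5 and 7 above, and the 33 spindle genes −0.24, −0.25 and −0.39, with 3, 1 and 4 above. None of the 24 mitotic cyclins and kinases and none of the 31 kinetochore genes reached 2-fold either way in any of these comparisons. On the CPM scale the medians of the 24 were −0.44, −0.29 and −0.51, and after thinning to 10000 UMIs −0.36, −0.29 and −0.39. With no lineage limits the CPM-scale medians were −0.26, −0.26 and −0.45. With median-of-ratios factors they were −0.14, −0.25 and −0.18.

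The largest differences of this kind were in spindle genes. Kif18b, a motor that shortens microtubule ends, was at 26.2, 9.36, 16.4 and 10.9 CPM, which is 0.357-fold (interval 0.311 to 0.409) of control in Ikk2CA and 0.416-fold (interval 0.367 to 0.471) in the double mutant. Ect2, which is needed for cytokinesis, was at 59.2, 28.3, 44.1 and 28.1 CPM, lowest in Ikk2CA and the double mutant. Kifc1, a minus-end motor that clusters centrosomes, was at 44.6, 25.04, 27.7 and 26.0 CPM, lower in each mutant than in control. Nek2, a centrosome-splitting kinase, was at 31.2, 16.9, 21.3 and 16.2 CPM, and Cdc25b, the phosphatase that activates Cdk1, at 35.2, 18.3, 24.97 and 18.2 CPM.

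Other members of the mitotic lists stood closer to control. Cdk1 was at 297, 205, 225 and 238 CPM and Ccnb2 at 189, 141, 129 and 129 CPM, both highest in control. Birc5, the survivin subunit of the chromosomal passenger complex, was at 335, 333, 294 and 293 CPM and Aurkb, its kinase, at 129, 119.6, 113 and 112 CPM. Cenpw, a centromere protein, ran the other way at 101, 135, 95.2 and 148 CPM, highest in the double mutant. Anapc13, a small subunit of the anaphase-promoting complex, was likewise higher in Ikk2CA and the double mutant, at 102, 145, 101 and 151 CPM. That complex and its substrates, 20 genes, had relative medians of −0.02, −0.15 and 0.01 in Ikk2CA, Jak2V617F and the double mutant, where the double mutant turns to −0.25 on the CPM scale and Ikk2CA to 0.02 with median-of-ratios factors. The 27 condensin, cohesin and chromatin genes had −0.01, −0.03 and −0.13, with Ikk2CA at 0.04 with median-of-ratios factors. Hmgb2, a chromatin protein abundant in dividing cells, was at 2447, 2454, 1986 and 2177 CPM.

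The 58 S phase and replication genes were near control in every mutant. On the CPM scale none passed 2-fold, and relative to the median gene 1 did, in Ikk2CA. The relative medians of the 58 genes were 0.18, 0.04 and 0.15, but on the CPM scale those of Ikk2CA and the double mutant turn to −0.08 and −0.10. Mcm2, a subunit of the replicative helicase, was at 81.0, 65.2, 89.5 and 81.2 CPM. Gins1, part of the same helicase, was at 17.0, 28.8, 21.3 and 25.2 CPM, lowest in control. Pclaf, a partner of the sliding clamp, was highest in Ikk2CA at 392, 549, 355 and 375 CPM, and Hells, a chromatin remodeller, was at 80.3, 109, 108 and 114 CPM.

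Replication-dependent histone transcripts were higher in every mutant and most so in Ikk2CA. The 47 histone genes summed to 2238 CPM in control, against 5774 in Ikk2CA, 3389 in Jak2V617F and 4059 in the double. The relative medians were 1.40, 0.59 and 1.13, with 32 of 34, 28 of 34 and 33 of 35 measured genes above the median gene, and 19, 2 and 14 at least 2-fold higher than control. These transcripts mostly lack the poly(A) tail that the capture uses, and near-identical copies can share reads, so the level of any single copy is uncertain.

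Individual histone genes did not keep one order. Hist1h2ap, an H2A gene (chr13:21833026-21833507 on GRCm38), was at 172 CPM in control and, in mutant libraries, 1126 in Ikk2CA, 519 in Jak2V617F and 271 in the double. Hist1h4d, an H4 gene, was at 76.9, 353, 139.9 and 365 CPM, so that here the double mutant matched Ikk2CA, whereas for Hist1h2ap it stood closer to control. Hist1h2ae was at 401, 1119, 549 and 639.6 CPM and Hist1h2an at 32.9, 65.0, 49.8 and 107 CPM, highest in Ikk2CA and in the double mutant respectively. The Ikk2CA histone median was 1.14 on the CPM scale in cycling cells, 0.65 in the other kept cells within the lineage limits and 1.91 in all other kept cells. In the double mutant these medians were 0.88, 0.98 and 1.19, so the order of cycling and other cells turned on which others were taken.

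G1 regulators differed one by one. The 26 measured of 28 had relative medians of −0.08, 0.01 and −0.14, near the median gene, and that of Ikk2CA turns to 0.01 with median-of-ratios factors. Ccnd1, the cyclin that starts the G1 to S transition (chr7:144929931-144939925), was at 19.7 CPM in control and, in mutant libraries, 71.7 in Ikk2CA, 39.6 in Jak2V617F and 48.4 in the double. Every mutant was above control, at 3.65-fold (interval 3.29 to 4.05), 2.01-fold (interval 1.81 to 2.24) and 2.46-fold (interval 2.22 to 2.74). Ccnd2, the related cyclin, was at 172, 111, 199.9 and 127 CPM, lower in Ikk2CA and the double mutant. Ccne1, the cyclin that fires replication, was at 8.35, 17.7, 11.7 and 15.5 CPM.

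Among the inhibitors, Cdkn1a, which encodes p21, was at 14.8, 46.0, 20.6 and 14.6 CPM, high in Ikk2CA and at the control level in the double mutant. Cdkn2c, the Cdk4 and Cdk6 inhibitor p18, was lower in all 3 mutants at 41.2, 27.2, 20.1 and 21.6 CPM, and Cdkn1b, p27, was at 60.5, 46.4, 56.5 and 36.9 CPM. Of 23 p53 targets, 13, 12 and 13 were measured, with relative medians of 0.20, −0.01 and −0.19, of which Ikk2CA turns to −0.05 on the CPM scale and the double mutant to 0.00 with median-of-ratios factors. Bax, a pro-apoptotic member, was at 78.7, 137, 96.8 and 116 CPM, and Trp53inp1, a stress gene, at 14.9, 5.21, 10.7 and 4.01 CPM. Cdkn1a therefore did not stand for the list.

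Immediate early genes, which respond within minutes to growth and stress signals, were higher in the cycling cells of Ikk2CA and not in those of the double mutant. The relative medians were 1.85, 0.50 and 0.16, with 14 of 19 genes at least 2-fold higher in Ikk2CA, 3 of 16 in Jak2V617F and 0 of 16 in the double mutant. On the CPM scale the double mutant median turns to −0.10. Against Ikk2CA the double mutant had 0 of 19 genes higher and 15 at or below 0.5-fold, with a CPM-scale median of −1.80. Over all genes 14 of 7570 (0.185%) were at least 2-fold higher and 107 (1.41%) at or below 0.5-fold in that comparison.

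Fos, a subunit of the AP-1 factor (chr12:85473890-85477273), was at 43.3 CPM in control and, in mutant libraries, 380.3 in Ikk2CA, 123 in Jak2V617F and 47.7 in the double. The Ikk2CA level was 8.78-fold (interval 8.22 to 9.39) that of control and the double mutant level 1.101-fold (interval 1.02 to 1.19). Nr4a1, an orphan nuclear receptor (chr15:101254269-101274795), was at 1.48, 21.0, 8.82 and 1.28 CPM, with both single mutants above control and the double mutant level overlapping control. Egr1, a zinc finger factor that restrains stem cell division, was at 17.2, 65.6, 45.0 and 9.84 CPM, and here the double mutant was below control at 0.573-fold (interval 0.497 to 0.661).

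Other genes of the list were also highest in Ikk2CA. Fosb was at 19.8, 106, 61.0 and 23.6 CPM, Junb at 45.1, 191, 72.9 and 67.6 CPM and Jun at 166, 378, 191 and 108 CPM. Klf4, a factor linked to quiescence, was at 2.17, 17.2, 2.90 and 1.11 CPM, though in control 61.7% of its UMIs lay in 10 cells. Zfp36, which destabilises cytokine messages, was at 35.8, 157, 64.9 and 38.4 CPM. In the other kept cells within the lineage limits the Ikk2CA median of the list was 1.86, beside 1.60 in cycling cells, both on the CPM scale. The quiescence list shares 7 of these genes and had relative medians of 1.02, 0.14 and −0.41. Txnip and Foxo3, outside that overlap, were lowest in Ikk2CA, with Txnip at 161, 71.2, 170.4 and 89.3 CPM and Foxo3 at 47.6, 23.1, 34.0 and 24.2 CPM.

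Several NF-κB target genes were at least 2-fold higher in cycling cells with the Ikk2-CA allele. The relative medians were 1.10, −0.06 and 0.49, with 12 of 25 genes at least 2-fold higher in Ikk2CA, 0 of 20 in Jak2V617F and 7 of 23 in the double mutant, where 3 were at or below 0.5-fold and 13 were above control. With genes of at least 50 CPM the CPM-scale median went from 0.85 to 0.14 in Ikk2CA and turned from 0.24 to −0.10 in the double mutant. Nfkbia, the IκBα inhibitor that NF-κB itself induces (chr12:55489410-55492647), was at 65.9 CPM in control and, in mutant libraries, 325 in Ikk2CA, 76.5 in Jak2V617F and 248 in the double. Relb, an NF-κB subunit, was at 5.03, 37.9, 5.00 and 30.2 CPM, and Nfkb2, its usual partner, at 7.52, 30.9, 6.79 and 21.0 CPM. For all 3 genes both Ikk2-CA libraries were several-fold above control and Jak2V617F was within 1.5-fold of it.

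The cytokine members split. Ltb, lymphotoxin beta, was at 45.6, 258, 37.9 and 225 CPM, and Ccl5, a chemokine, at 2.31, 52.5, 5.44 and 35.8 CPM, both high in the 2 Ikk2-CA libraries. Ccl3 and Ccl4, also chemokines, were at 18.04, 39.3, 19.9 and 5.10 CPM and 23.2, 80.6, 29.5 and 8.77 CPM, high in Ikk2CA alone and lowest in the double mutant. Tnfaip3, the A20 inhibitor, was at 3.74, 17.2, 3.802 and 6.87 CPM, with the double mutant at 0.401-fold (interval 0.347 to 0.461) of the Ikk2CA level. Cd44, an adhesion receptor, ran lower at 93.6, 53.02, 71.8 and 44.2 CPM. Of Ccl5 UMIs, 64.0%, 20.7%, 55.6% and 46.9% lay in the 10 highest cells, and at 10000 UMIs 1.63%, 24.1%, 2.33% and 14.2% of cycling cells held one.

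Among genes outside the lists, Ehd3, an endosomal recycling protein (chr17:73804134-73832094), was at 0.554 CPM in control and, in mutant libraries, 41.9 in Ikk2CA, 1.13 in Jak2V617F and 21.1 in the double. That was 75.7-fold (interval 43.2 to 147) the control level in Ikk2CA and 38.2-fold (interval 21.8 to 74.2) in the double mutant. Dscam, a cell adhesion molecule best known in neurons (chr16:96590840-97170752), was at 0.369, 20.3, 0.757 and 14.8 CPM. Both genes were low in the 2 libraries without the Ikk2-CA allele, and an Ehd3 UMI was in 0.916%, 35.8%, 1.55% and 19.3% of cycling cells at 10000 UMIs. In the other kept cells the levels were 2.95, 48.8, 3.64 and 25.9 CPM for Ehd3 and 0.397, 18.2, 0.490 and 10.2 CPM for Dscam.

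Genes of the JAK-STAT pathway stood near the median gene as a list, and 2 feedback inhibitors differed. The list of STAT5 and feedback genes had relative medians of −0.09, 0.14 and −0.04 over 14, 17 and 15 genes, and that of the double mutant turns to 0.02 with TMM factors. Socs2, a STAT5-induced feedback inhibitor (chr10:95385362-95417180), was at 4.52, 1.74, 10.9 and 17.4 CPM, which is 2.41-fold (interval 1.94 to 3.01) of control in Jak2V617F and 3.85-fold (interval 3.12 to 4.81) in the double mutant. Cish, another such inhibitor, was at 7.98, 4.16, 11.1 and 5.62 CPM. Both were highest in a library with Jak2 V617F, and both were lowest in Ikk2CA. Jak2 itself was at 18.8, 13.7, 15.5 and 10.0 CPM, a level that does not tell mutant from normal transcripts.

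Growth genes as a list stood above the median gene in all 3 mutants, by less than 2-fold. The 40 MYC and ribosome biogenesis genes had relative medians of 0.36, 0.25 and 0.66, with 37, 35 and 39 of 40 above the median gene, and none of them was 2-fold higher than control. On the CPM scale 28, 34 and 38 were above control with medians of 0.11, 0.22 and 0.40, and with no lineage limits the Ikk2CA median was −0.0005. Ncl, nucleolin, was at 1007, 1077, 1311 and 1495 CPM, Eif5a, a translation factor, at 981, 1418, 1114 and 1571 CPM, and Nme1, a nucleotide kinase, at 368, 451, 464 and 579 CPM. For each the double mutant was highest. Mycn, by contrast, was lower in Ikk2CA at 17.5, 3.83, 18.9 and 9.05 CPM.

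Glycolysis genes, 15 measured of 18, had relative medians of 0.06, 0.08 and 0.39; the Ikk2CA median is −0.19 on the CPM scale. Ldha, which makes lactate, was at 361, 445, 447 and 574 CPM, and Gapdh at 1369, 1693, 1677 and 1887 CPM, both highest in the double mutant. Ldhb, the paralogous lactate dehydrogenase, was lower in every mutant, at 57.4, 27.8, 40.5 and 28.7 CPM. Interferon-stimulated genes, 25 measured of 34, had relative medians of −0.21, −0.03 and −0.44. With genes of at least 50 CPM their CPM-scale medians went from −0.47, −0.06 and −0.69 to −0.01, −0.02 and −0.05. Rsad2, an antiviral enzyme, was at 12.8, 2.75, 9.93 and 2.51 CPM and Ifi44 at 15.8, 4.71, 12.3 and 3.86 CPM, low in both Ikk2-CA libraries.

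Stem cell genes were lower in cycling cells with the Ikk2-CA allele. In sums over cells, fewer cells that carry a transcript and less of it per cell cannot be told apart. The 18 measured of 24 had relative medians of −0.83, 0.14 and −0.43, with 0, 12 and 1 above the median gene, and 11, 0 and 6 at or below 0.5-fold of control. Hlf, a transcription factor of stem cells (chr11:90336536-90390895), was at 186 CPM in control and, in mutant libraries, 39.8 in Ikk2CA, 171 in Jak2V617F and 60.2 in the double. Ikk2CA stood at 0.214-fold (interval 0.201 to 0.227) and the double mutant at 0.324-fold (interval 0.308 to 0.341) of control, while Jak2V617F was near it. At 10000 UMIs 65.2%, 26.6%, 65.1% and 40.04% of cycling cells held a Hlf UMI.

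Other stem cell genes were also lowest in Ikk2CA. Mecom, a zinc finger factor needed by stem cells, was at 37.5, 12.8, 42.4 and 28.0 CPM, so that the double mutant lay between Ikk2CA and control. Emcn, a surface sialomucin, was at 17.9, 2.40, 10.1 and 5.00 CPM. Gata2 was at 45.3, 37.0, 64.0 and 40.8 CPM, highest in Jak2V617F. In the other kept cells within the lineage limits the list's CPM-scale medians were −0.94 in Ikk2CA and −0.75 in the double mutant, beside −1.09 and −0.69 in cycling cells.

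Transcripts of the sort markers were present in all 4 libraries. Kit was at 138, 82.0, 156 and 85.8 CPM and Ly6a, which encodes Sca-1, at 61.5, 141, 98.0 and 160.1 CPM, with Kit lower in both Ikk2-CA libraries and Ly6a higher in each mutant. Cd34 was at 502, 263, 377 and 310.5 CPM and Cd48, a marker that stem cells lack and most progenitors carry, at 188, 239, 167 and 246 CPM. Markers of mature T, NK and macrophage cells, 17 genes, summed to 236.5, 187.4, 231.1 and 225.9 CPM.

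Lymphoid priming genes had relative medians of −0.33, −0.30 and −0.69 over 12, 11 and 11 genes, with 4, 2 and 5 at or below 0.5-fold of control. With no lineage limits the CPM-scale median of Ikk2CA turned from −0.59 to 0.023, and those of Jak2V617F and the double mutant were −0.32 and −1.14. Dntt, the enzyme that adds bases at receptor gene joints (chr19:41029275-41059525), was at 462 CPM in control and, in mutant libraries, 85.3 in Ikk2CA, 204 in Jak2V617F and 101 in the double. Control was highest, with Ikk2CA at 0.185-fold (interval 0.177 to 0.192) of it. Flt3, the receptor of multipotent progenitors, was at 152, 67.2, 101 and 54.8 CPM, and Il7r, the lymphoid cytokine receptor, at 17.7, 4.49, 6.48 and 2.04 CPM. The limits on Cd79a and Ly6d remove lymphoid cells, most of all in Ikk2CA; without the limits Il7r turned higher in Ikk2CA than in control (log2 ratio 0.96, against −1.98 with them).

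The 13 B cell genes, which the rule selects against, summed to 194, 423, 119 and 222 CPM, and Pax5, the B cell commitment factor, was at 0.0923, 0.193, 0 and 0 CPM. Igkc, which was chosen after its values were seen, had a UMI in 29.2%, 97.9%, 7.51% and 19.2% of cycling cells and stood at 19.9, 306.7, 4.10 and 17.7 CPM. The median Ikk2CA cycling cell held 6 of its UMIs. The part of free RNA in these counts was not tested.

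Genes of plasmacytoid dendritic cells had a relative median of 1.34 in Ikk2CA over 7 genes, against −0.27 and −0.55 over 6 in the others. On the CPM scale the Ikk2CA median was 1.08, and 1.05 with no lineage limits. It was 0.39 with genes of at least 50 CPM, 0.57 in cells with no Xist UMI and 0.71 without high doublet scores. Irf8, a factor of dendritic cells and monocytes, was at 104, 265, 71.1 and 52.1 CPM, high in Ikk2CA alone. Granulocyte-monocyte genes had medians of 0.13, −0.11 and −0.37, and that of Ikk2CA is −0.13 on the CPM scale. The list split in Ikk2CA, with 11 of 23 measured genes above control, 5 at least 2-fold higher and 6 at or below 0.5-fold. The CPM-scale median of Ikk2CA was −0.67 with no lineage limits. It turned to 0.13 without the few cells high in globin or S100a8 and S100a9. Mpo, myeloperoxidase, was at 457, 689, 256 and 425 CPM, and Csf1r, the monocyte growth factor receptor, at 5.49, 26.8, 5.00 and 6.38 CPM, both highest in Ikk2CA. The limit on Elane acts on this lineage.

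Megakaryocyte genes had relative medians of −0.36, −0.04 and 0.01 over 11, 12 and 12 genes, with the double mutant at −0.25 on the CPM scale. Pf4, platelet factor 4, departed from the list at 11.7, 114, 26.2 and 124 CPM, and at 10000 UMIs a Pf4 UMI was in 10.7%, 37.1%, 12.0% and 45.0% of cycling cells. The other cells of the same libraries held one in 15.3%, 36.2%, 18.6% and 51.2%, and the part of free RNA in these shares was not tested. The limits on Gp5 and Gp9 act on this lineage, and without the lineage limits the Jak2V617F log2 ratio of Pf4 to control turned to −0.30. Selp, P-selectin, was at 11.7, 5.18, 24.9 and 13.6 CPM, highest in Jak2V617F. Erythroid medians were 0.62, 0.52 and 0.52 over 10 genes, and the limit on Car1 acts on this lineage. On the CPM scale they turned from 0.37, 0.49 and 0.26 to −0.52, −0.42 and −0.58 with no lineage limits. Without the few cells high in globin or S100a8 and S100a9 they were −0.29, 0.16 and −0.25, and without high doublet scores −0.28, 0.46 and −0.30. The 4 adult globin genes among these rested on few cells: 0, 5, 5 and 1 cycling cells held 0%, 95.04%, 81.1% and 83.8% of all their UMIs. Without such cells the Jak2V617F log2 ratio of Hbb-bs went from 4.63 to −0.20.

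Neutrophil and basophil genes also rested on few cells. S100a8 and S100a9 were at 561, 155, 437 and 263 CPM and 737, 168, 592 and 297 CPM, with 98.1%, 96.7%, 98.5% and 98.8% of their UMIs in 6, 3, 20 and 4 cells. Of mast, basophil and eosinophil genes 4 of 15 were measured in Ikk2CA, at a relative median of 2.51, and Prg2, eosinophil major basic protein, had 93.2% of its Ikk2CA UMIs in 10 cells. Cpa3, a mast cell protease, was spread more widely at 25.4, 79.2, 17.9 and 44.0 CPM, with 29.8% in 10 cells in Ikk2CA. Transferrin receptor, Tfrc, which all dividing cells need for iron, was higher in each mutant at 16.5, 30.5, 27.3 and 25.6 CPM.

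**Figure D5:**
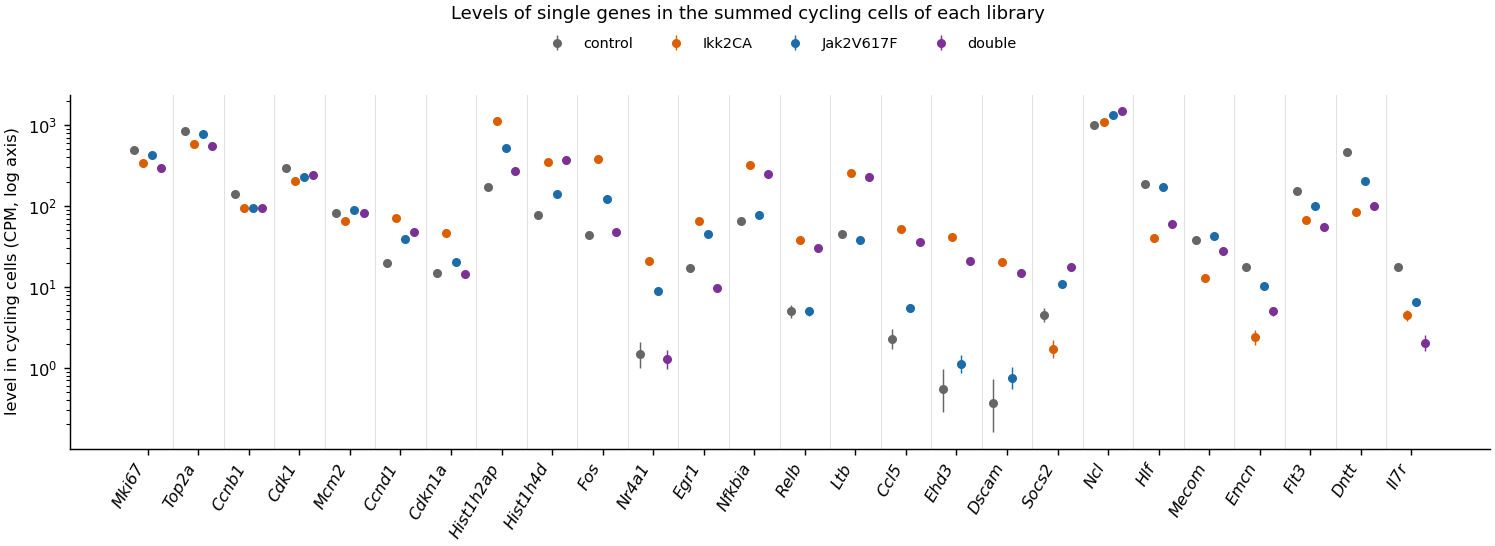
Level (CPM, log axis) of selected genes in the summed cycling cells of each library; points are libraries and bars 95% Poisson intervals for counting error. Fos, Nr4a1 and Egr1 are high in Ikk2CA and not in the double mutant, whereas Relb, Ltb, Ccl5, Ehd3 and Dscam are high in both Ikk2-CA libraries.

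The double mutant was set against each single mutant to see where the alleles combined. Against Jak2V617F 67 of 8099 genes (0.827%) were at least 2-fold higher and 101 (1.25%) at or below 0.5-fold. Ikk2CA against Jak2V617F had 137 of 8159 (1.68%) and 197 (2.41%). Departure from additivity, which is the double mutant's log2 level, less that of each single mutant, plus control's, was most negative among the immediate early genes for Nr4a1 (−6.61), Fos (−4.50), Nr4a2 (−4.40), Klf4 (−4.37) and Egr1 (−4.13). Apart from Klf4, whose Jak2V617F ratio to control of 1.34-fold (interval 0.959 to 1.89) overlaps 1, these genes were higher in both single mutants. In the double mutant they were near or below control.

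Some genes ran the other way, lower in the single mutants and at or above the control level in the double mutant. Nutf2-ps1, a pseudogene copy whose reads may belong to its parent gene, was at 71.3, 33.8, 34.1 and 75.6 CPM. Phpt1, a histidine phosphatase, was at 81.3, 46.1, 42.2 and 99.1 CPM and Bloc1s1, a lysosome-related organelle subunit, at 83.2, 62.9, 40.8 and 96.8 CPM. For Phpt1 the other kept cells had the same order, at 87.2, 47.8, 44.6 and 103 CPM. Myl10, a myosin light chain, was low in Ikk2CA alone, at 75.1, 13.8, 56.8 and 62.9 CPM.

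Some list medians of the cycling cells were close to those of the other kept cells within the lineage limits, and those of the mitotic genes were not. On the CPM scale the NF-κB median in Ikk2CA was 0.85 in cycling and 0.77 in other cells, and in the double mutant 0.24 and 0.04. The median of mitotic cyclins and kinases was −0.44, −0.29 and −0.51 in cycling cells against −0.07, 0.17 and 0.08 in the others. That distance turned on which others were taken. In cells within the limits with no UMI of Mki67 or Top2a the medians were −0.23, −0.06 and −0.28, closer to the cycling cells. In all other kept cells they were 0.51, −0.04 and 0.07. The rule picks cycling cells by transcripts that move with this list, and depth sets how many weakly cycling cells pass. These medians are therefore given side by side and their differences were not tested.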

How the data were processed

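Droplet libraries of sorted LSK cells, 1 per genotype, were deposited as UMI count matrices of 32285 genes, and these UMI counts were used as deposited by the authors, with no normalization between libraries. Cell Ranger 4.0.0 is named per the file headers and Cell Ranger 3.0.1 per the series' design text, with genome mm10 and Seurat 4.0.0 per the submitters' processing notes. The alignment settings are not given in the sources used here. Whether reads of near-identical genes were split was not tested. No other columns of values were left out (0).

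Barcodes with 500 to 7500 genes and under 10% mitochondrial UMIs were kept, as the design text states, and the rule on Mki67, Top2a and the 6 lineage genes was applied to them. UMI counts of the chosen cells were summed per library and scaled to CPM. A gene was compared at 10 CPM or more in either library, and a ratio of at least 2 or at most 0.5 was counted. A list median needs at least 3 measured genes and is given beside that of all genes. CPM intervals are exact Poisson, ratio intervals exact conditional binomial and shares Clopper-Pearson, all at 95%. A gene at 0 takes a floor of 3 UMIs in a ratio. Cells were thinned to 5000 or 10000 UMIs and the rule was applied again. The steps were tested on simulated data for Ikk2CA over control (8249 genes): 67 of 67 genes planted at 3-fold and 66 of 66 at 4-fold passed the 2-fold limit, as did 0 of 67 at 1.5-fold and 0 of 8049 unchanged genes. With 1 library per genotype this check of the steps gives no rate of false calls from the spread between animals.

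Named genes had 20 CPM or more in a compared library and were the 10 highest and 10 lowest ratios per mutant, 6 at either end for double against single mutants, the 5 and 5 for additivity, the 15 highest and 10 lowest of cycling over other cells, the 5 and 5 whose effect differed most from other cells, and up to 5 members of each of 26 lists, with every mitotic cyclin, G1 and gate gene. Left out were genes that are sex-linked, unnamed, mitochondrial, or code for ribosomal proteins or antigen receptors. The members and the lists were chosen with earlier results of these data known.

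Doublets were scored with Scrublet in scanpy 1.11.5, whose own calls were too few to use in 3 of the 4 libraries, so the highest-scoring 0.8% per 1000 barcodes were left out as an alternative and kept otherwise. The other alternatives were TMM factors (edgeR 4.0.16), median-of-ratios factors (DESeq2 1.42.0), both as scaling only, other CPM and UMI limits, thinning, no lineage limits, cells with no Xist UMI and a mean over cells. The software was R 4.3.3 and Python 3.11.15 (pandas 2.3.3, scipy 1.17.1, numpy 2.4.6). Positions of genes are on GRCm38.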

Additional observations from a re-analysis of the deposited data

Results flagged for a closer look

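For 13 genes the Ikk2-CA allele went with a ratio of at least 2-fold one way without Jak2 V617F (Ikk2CA over control) and at least 2-fold the other way with it (double over Jak2V617F). With 1 library per genotype the difference was not tested. Over all genes compared in Ikk2CA over control, 165 of 8249 (2%) were at least 2-fold higher and 294 (3.56%) at or below 0.5-fold. In double over Jak2V617F the counts were 67 of 8099 (0.827%) and 101 (1.25%). On the log2 scale the immediate early genes were at 3.83 and −2.79 for Nr4a1, 3.13 and −1.36 for Fos, 2.42 and −1.37 for Fosb, 1.93 and −2.19 for Egr1 and 1.60 and −1.71 for Klf2. The chemokines were at 1.12 and −1.96 for Ccl3 and 1.80 and −1.75 for Ccl4. The myeloid genes were at 2.28 and −1.05 for Ly6c2, 1.66 and −1.15 for Ctsh and 1.17 and −1.71 for Lgals3. Prg2 (4.54 and −1.38) and Prss34 (2.05 and −4.59) rested on few cells. The pseudogene Nutf2-ps1 ran the other way at −1.08 and 1.15.

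Cells past both Mki67 and Top2a thresholds but outside the lineage limits made up 9.09% of kept cells in control, 25.5% in Ikk2CA, 9.42% in Jak2V617F and 15.5% in the double mutant. Thinned to 5000 UMIs per cell, an alternative added after seeing the data, they made up 3.02%, 9.64%, 2.52% and 1.87%, and at 10000 UMIs 9.22%, 17.8%, 9.34% and 5.66%. Ikk2CA was above control at each depth, and the double mutant was above it at full depth and below it at equal depth.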

How the results depend on the processing

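No paired analysis was possible because each genotype has 1 library and no result comes from a test. The shares below are for control, Ikk2CA, Jak2V617F and the double mutant, and those within the lineage limits were added after seeing the data. Thinned to 10000 UMIs they were 22.16%, 13.53%, 31.05% and 19.09%, and to 5000 UMIs 10.38%, 8.129%, 12.96% and 10.52%. With 1 or more UMIs of both genes they were 17.8%, 17.58%, 25% and 28.89%, with 4 or more 10.75%, 10.2%, 14.95% and 17.43%, and with no lineage limits 22.76%, 38.78%, 29.37% and 37.68%. Of cells within the limits they were 18.59%, 27.88%, 25.84% and 33.01%, thinned to 5000 UMIs 12.67%, 12.94%, 15.12% and 12.16%, and to 10000 UMIs 30.43%, 24.51%, 40.15% and 24.3%. In Jak2V617F the share was 18.96% of all deposited barcodes and 18.95% without high doublet scores. In cells of 5000 or more UMIs with no Xist UMI it was 15.68% in control and 21.85% in Jak2V617F, against 14.99% and 21.87% in all cells of 5000 or more UMIs.

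Counts of genes at least 2-fold higher and at most 0.5-fold in Ikk2CA were 276 and 94 under median-of-ratios scaling, 253 and 109 under TMM, 69 and 57 at 50 CPM and 898 and 1795 with no filter, and 126 were at most 0.5-fold relative to the median gene. In the double mutant they were 184 and 60, 177 and 61, 30 and 38, and 561 and 1766 in the same order, 142 and 91 relative to the median gene, and 353 lower with no Xist UMI. In Jak2V617F they were 10 and 6 at 50 CPM and 786 and 485 with no filter, and 53 were lower with no lineage limits.

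Of the log2 ratios of named genes over all alternatives, 6881 stayed within the error of counting, 2736 moved and 20 turned sign. With no lineage limits Il7r (0.96), Ly6c2 (−0.15), Ms4a3 (−1.37) and Mt1 (−0.30) turned in Ikk2CA, Pf4 (−0.30) and Mt1 (−0.14) in Jak2V617F, and Ms4a3 (−0.70) and Mt1 (−0.029) in the double mutant. The other settings, chosen after seeing the data apart from the doublet scores, concern few cells. Without cells high in globin or S100a8 and S100a9, Hbb-bt (−0.25) and Lcn2 (1.195) turned in Ikk2CA, Hba-a2 (−0.35) and Hbb-bs (−0.20) in Jak2V617F, and Hbb-bs (−0.13) and Lcn2 (0.43) in the double mutant. Without the 10 highest cells Hbb-bt (−0.053), Lcn2 (0.78) and Mcpt8 (−0.036) turned in Ikk2CA and Lcn2 (0.13) in the double mutant. Without high doublet scores Hbb-bt (−0.0295) turned in Ikk2CA and Hbb-bs (−0.13) in the double mutant. The cause was not tested.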
